A study of Mus musculus with 23 samples.

Results

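Cxcl9, Cxcl10, Cxcl11 and Cxcr3 are the interferon-inducible chemokines that share a receptor, and that receptor. They were taken from the data as the rows with these symbols, and all 4 were found among the 770 genes of the panel. Interferon-gamma, made mainly by T cells and NK cells, acts on macrophages, dendritic cells, endothelium and tumour cells, and these cells then release CXCL9, CXCL10 and CXCL11. CXCL10 and CXCL11 also answer to type I interferon. The chemokines attract cells that carry CXCR3, chiefly activated CD8+ T cells, Th1 cells and NK cells, and they are read as markers of T cell-inflamed tumours.

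The tumours were grown from E0771 luc2 GFP, a mammary carcinoma line of C57BL/6 mice, selected for its homing to bone and tagged with luciferase and GFP. The cells were engrafted in the mammary ducts of immunocompetent C57BL/6J females aged 6 to 8 weeks, and treatment started on day 9 and ended with culling on day 23. The groups were A, given 1 mg/kg of Anakinra each day to block the IL-1 receptor (5 tumours), DZ, given 2 mg/kg of the anthracycline Doxorubicin each week and, after 24 h, 100 µg/kg of the bisphosphonate Zoledronic acid (6 tumours), ADZ, given all of these drugs (6 tumours), and P, given placebo (6 tumours). RNA of 23 whole tumours was counted with the NanoString nCounter panCancer immune panel, which counts a coloured barcode for each captured transcript without amplification. Values are log2 of normalised counts, so that a difference of 1 is a doubling, and levels of different genes are not set against each other because each has its own probe.

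Whole tumours hold cancer cells, stroma and leucocytes together, so fewer cells of a type and less RNA per cell cannot be told apart. Cdh1, an epithelial adhesion gene, lay above background in 23 of 23 tumours and Epcam, a second epithelial marker, in 21. Totals ran from 882533 to 1677295 gene counts per tumour (median 1206575). The tumours fell into sets that no label names, found by clustering on the 20 reference genes alone. Set II held 11 tumours (2 A, 3 DZ, 3 ADZ and 3 P) and set I held 12 (3 of each group). The spike-in positive controls, which do not come from the tumour, differed in part between them. The level of the faintest control minus that of the brightest was -9.87 to -9.31 log2 units in set II and -9.30 to -8.85 in set I, next to each other without overlap. Of 5 such differences from the brightest control, 3 overlapped between the sets. Gene counts totalled 882533 to 1206575 in set II and 1019747 to 1677295 in set I. The main results for the members are therefore also given within the sets, and the origin of the split was not tested.

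Tumour P4 stood apart within the placebo group. The mean of 17 B cell and lymph node markers was 9.14 in P4 and 4.69 to 5.79 in the other 22 tumours, on the log2 scale. Ms4a1, which encodes the B cell antigen CD20, was 10.19 in P4, and elsewhere did not pass 5.46. P4 also had the highest level of Cd8a (7.95), the coreceptor chain of cytotoxic T cells, and of Ptprc (11.47), which encodes the pan-leucocyte antigen CD45. Its rise was not confined to lymphocyte genes. P4 was highest for fibroblast markers (11.16, at most 10.48 elsewhere), and for fat cell, neutrophil, and dendritic cell and macrophage markers. It lay within the range of the others for blood vessel, epithelial and interferon lists. The median of all panel genes was 9.09 in P4, and elsewhere did not pass 8.64. Values without P4 are given beside the results on Cd8a and on the gene lists.

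The 3 chemokine genes lie close together on chromosome 5, in the gene order Cxcl9, Art3, Cxcl10 and Cxcl11, and Cxcr3 lies on chromosome X (RefSeq, GRCm38.p6). RefSeq lists Cxcl11 of C57BL/6J mice as a transcribed pseudogene and the other 3 as protein-coding, so that its values here are transcript levels with no protein entry. The sequences before the starts of Cxcl9 and Cxcl10 are shown as a description of these neighbours. Their levels did not keep together across all tumours and were closer within the sets, as described below. A link between the letters and the levels was not tested. Each run is the 250 bases before the annotated start, 5′ to 3′ on the gene's own strand, from RefSeq on GRCm38.p6, both on the minus strand, at chr5:92328080-92328329 for Cxcl9 and chr5:92348890-92349139 for Cxcl10. Capitals mark matches, on either strand, to the core of the interferon-stimulated response element (ISRE, read as GAAA, any 2 bases and GAAA), to the interferon-gamma-activated site (GAS, TTCNNNGAA) or to the NF-kB consensus.
Cxcl9: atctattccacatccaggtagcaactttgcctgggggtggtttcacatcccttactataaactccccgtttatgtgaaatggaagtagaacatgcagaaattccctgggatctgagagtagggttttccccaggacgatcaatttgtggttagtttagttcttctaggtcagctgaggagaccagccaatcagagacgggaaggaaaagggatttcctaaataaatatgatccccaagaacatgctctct
Cxcl10: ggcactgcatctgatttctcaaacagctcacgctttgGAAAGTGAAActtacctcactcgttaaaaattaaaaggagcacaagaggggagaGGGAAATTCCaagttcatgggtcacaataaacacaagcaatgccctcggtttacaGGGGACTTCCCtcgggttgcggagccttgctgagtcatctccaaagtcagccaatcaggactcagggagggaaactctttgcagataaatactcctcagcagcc
The Cxcl10 run held an ISRE core from -213 to -204 relative to the start, and NF-kB matches from -159 to -150, from -104 to -95 and from -103 to -94, the last pair overlapping. The Cxcl9 run held none of these motifs in the exact letters searched. Of 27025 promoters of the same length, 3.04% held an ISRE core, 7.18% a GAS and 7.01% an NF-kB match. Of the Cxcr3 run, from chrX:101734148-101734397 on the minus strand, no letters matched these 3 motifs. A match is a description of the letters, and no match says only that these letters are not in this window.

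All 4 members were above the background of their tumour in 23 of 23 tumours. Cxcl9 spanned 9.87 to 12.18 on the log2 scale (786 to 5408 barcodes counted), Cxcl10 10.77 to 12.05 (1834 to 3454 barcodes), Cxcl11 6.07 to 7.89 (74 to 234 barcodes) and Cxcr3 7.28 to 8.49 (134 to 290 barcodes). Among the members the span between tumours was thus widest for Cxcl9 and narrowest for Cxcr3. Ifng itself lay near the floor of the assay, with 18 to 63 barcodes, and was above background in 18 of 23 tumours.

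The first comparison asks whether blocking IL-1 signalling, chemotherapy with a bisphosphonate, or both, moved these genes. None of the 4 was called different between any of the groups, and the groups overlapped for every member. Cxcl9, a ligand induced mainly by interferon-gamma, was 10.02, 12.04, 10.06, 10.33 and 11.86 in the 5 A tumours. It ran from 10.0025 to 11.51 in DZ (median 11.09), from 10.60 to 11.56 in ADZ (median 10.89) and from 9.87 to 12.18 in P (median 11.0016). The A tumours thus lay at both ends of the range, with none between 10.33 and 11.86, and the mean was 10.86 ± 1.002 in A, 10.98 ± 0.51 in DZ, 10.99 ± 0.35 in ADZ and 11.02 ± 0.88 in P (SD, n = 5, 6, 6 and 6).

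Cxcl10, a ligand induced by both kinds of interferon, was 10.77, 11.47, 11.52, 11.62 and 11.03 in the A tumours. It ran from 10.89 to 11.88 in DZ (median 11.52), from 10.79 to 12.05 in ADZ (median 11.22) and from 11.07 to 11.72 in P (median 11.36). Means were 11.28 ± 0.36 in A, 11.45 ± 0.42 in DZ, 11.27 ± 0.48 in ADZ and 11.39 ± 0.26 in P, less than 1 SD apart. Cxcl11, the ligand with the pseudogene annotation, was 6.07, 7.38, 7.15, 7.16 and 6.64 in the A tumours. It ran from 6.32 to 7.64 in DZ (median 7.10), from 6.54 to 7.89 in ADZ (median 6.98) and from 6.64 to 7.65 in P (median 7.13).

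Cxcr3, the receptor, was 7.42, 7.97, 7.62, 7.59 and 7.96 in the A tumours. It ran from 7.45 to 8.49 in DZ (median 7.63), from 7.42 to 8.12 in ADZ (median 7.76) and from 7.28 to 8.03 in P (median 7.72). The highest level of Cxcr3 thus lay in a DZ tumour and the lowest in a placebo tumour, and all groups overlapped.

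**Figure D1:**
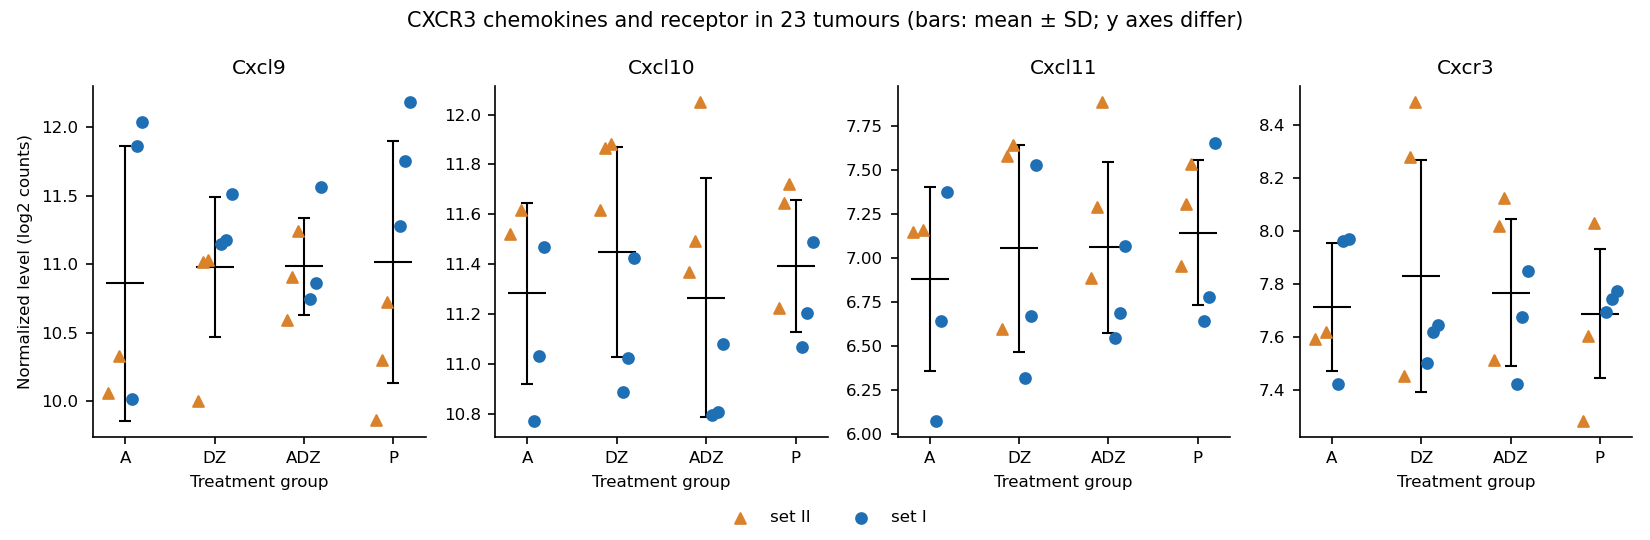
Log2 normalised level of each member (vertical axes, which differ) in every tumour by treatment group, with triangles for set II, circles for set I and black bars for the group mean and SD. The groups overlap for all 4 genes, and the A tumours leave a gap between 10.33 and 11.86 for Cxcl9.

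The differences were small beside their errors. For A minus P, where 0% of the 770 genes were called (limma, adjusted p under 0.05), Cxcl9 differed by -0.16 (95% interval -1.02 to 0.71), Cxcl10 differed by -0.11 (-0.60 to 0.38), Cxcl11 by -0.27 (-0.89 to 0.36) and Cxcr3 by 0.03 (-0.38 to 0.43). None of these passed the test, with an adjusted p of 0.999 for each. For DZ minus P, again with 0% called, Cxcl9 differed by -0.04 (-0.86 to 0.79), Cxcl10 by 0.06 (-0.41 to 0.52), Cxcl11 by -0.09 (-0.68 to 0.50) and Cxcr3 by 0.14 (-0.24 to 0.53). For ADZ minus P, also with 0% called, Cxcl9 differed by -0.03 (-0.86 to 0.80), Cxcl10 by -0.13 (-0.59 to 0.34), Cxcl11 by -0.08 (-0.68 to 0.51) and Cxcr3 by 0.08 (-0.31 to 0.47). These 3 comparisons share the placebo tumours and are not independent of each other.

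Between the treated groups the differences were of the same size. For A minus DZ, the comparison on which the study ran its own gene test, 0% of genes were called, and all 4 members lay below 0, at -0.12 for Cxcl9 (-1.04 to 0.80), -0.17 for Cxcl10 (-0.68 to 0.35), -0.18 for Cxcl11 (-0.87 to 0.52) and -0.12 for Cxcr3 (-0.60 to 0.36). The study itself, with other software and a further limit on the fold change, did report genes that differed between A and DZ. The reason for that unlike outcome was not tested. The same sign held for 575 of the 770 genes in A minus DZ, whose median was -0.13, and no member passed the test (adjusted p = 0.995). For ADZ minus DZ, with 0% called, the differences ran from -0.18 for Cxcl10 to 0.01 for Cxcl9 and Cxcl11. For ADZ minus A, with 0% called, they ran from -0.02 for Cxcl10 to 0.18 for Cxcl11. The interaction, which asks whether Anakinra moved a gene differently with and without chemotherapy, had 0% called and members between -0.09 for Cxcr3 and 0.27 for Cxcl11 (-0.59 to 1.13).

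Exact two-sided permutation tests of the 24 differences gave unadjusted p-values from 0.390 to 0.991. At an unadjusted p under 0.05, limma passed 9 genes for A minus P, 12 for DZ minus P, 11 for ADZ minus P, 8 for ADZ minus DZ, 1 for ADZ minus A, 33 for A minus DZ and 2 for the interaction, none of them a member. For A minus P the interval of Cxcl9 reached a 2-fold decrease, and that of Cxcr3 reached a 2-fold change in neither direction. With the set as a further term, which narrowed the intervals of Cxcl9 and Cxcl10, the A minus P differences were -0.24 for Cxcl9, -0.06 for Cxcl10, -0.22 for Cxcl11 and 0.04 for Cxcr3, and 0% of genes were called in each comparison.

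Within the sets the differences went apart most for Cxcl9, with none past the test. ADZ minus P was 0.62 for Cxcl9 in set II and -0.68 in set I, and DZ minus P was 0.39 in set II and -0.46 in set I. A minus P was -0.10 in set II and -0.43 in set I. For Cxcl10, A minus P was 0.04 in set II and -0.16 in set I, DZ minus P 0.26 in set II and -0.14 in set I, and ADZ minus P 0.11 in set II and -0.36 in set I. For Cxcr3, DZ minus P was 0.43 in set II and -0.15 in set I. For A minus DZ, the members had -0.49 for Cxcl9, -0.22 for Cxcl10, -0.12 for Cxcl11 and -0.47 for Cxcr3 in set II, beside a median of -0.38 over all genes, and 0.03, -0.02, -0.14 and 0.19 in set I, beside 0.06. For Cxcl11 all within-set differences from P lay between -0.33 and 0.09.

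**Figure D2:**
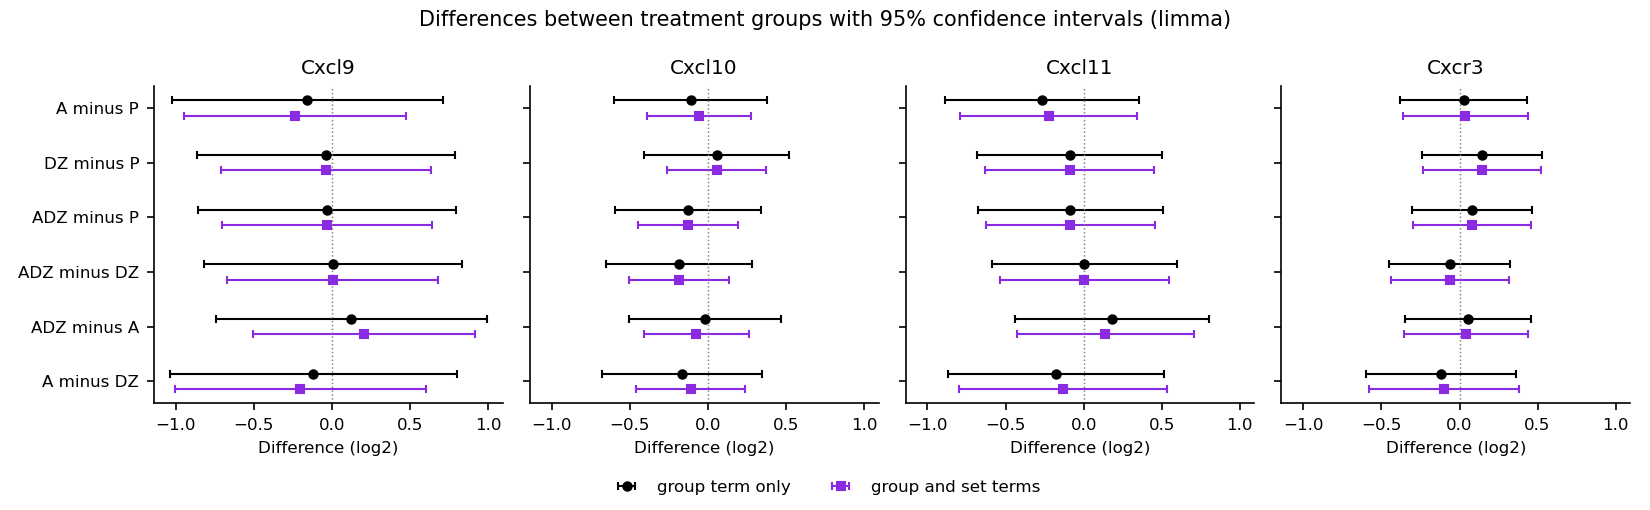
Difference in log2 level between treatment groups for each member (horizontal axis), with 95% confidence intervals, from the fit with a group term only (black circles) and with group and set terms (purple squares). Every interval crosses 0, and those of Cxcl9 and Cxcl10 are narrower once the set is a term.

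The unlabelled sets differed in opposite directions for Cxcl9 and Cxcl10. Cxcl9 ran from 9.87 to 11.24 in set II (median 10.60) and from 10.02 to 12.18 in set I (median 11.40). It was lower in set II by 0.81 log2 units after the group term (difference -0.81, 95% interval -1.30 to -0.32, limma adjusted p = 0.00957). Cxcl10 ran from 11.22 to 12.05 in set II (median 11.62) and from 10.77 to 11.49 in set I (median 11.05), and was higher in set II by 0.55 (0.32 to 0.78, adjusted p = 0.000578). Of 770 genes, 46.8% were called between the sets, 33.2% higher and 13.5% lower in set II, so that a call was common on this panel. Cxcl11 differed by 0.43 (0.04 to 0.82, adjusted p = 0.0647) and Cxcr3 by 0.13 (-0.15 to 0.40, adjusted p = 0.453), neither past the threshold.

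The scaling bears on these differences. The median difference of all genes between the sets was 0.24, and the barcodes counted for Cxcl10 before scaling covered 1834 to 3454 in set II and 2040 to 3348 in set I. With each tumour recentred on its panel median, the difference of Cxcl10 was 0.38 and no longer passed (adjusted p = 0.0659), while that of Cxcl9 was -0.98 (adjusted p = 0.00198). With quantile normalisation Cxcl10 differed by 0.54 (adjusted p = 0.00167) and Cxcl9 by -0.88 (adjusted p = 0.00332), and Cxcr3 lay below 0 under both. Of the genes called, 71.1% were higher in set II under the deposited scaling, 56.7% under the panel median and 46.2% under quantile normalisation.

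Genes of the same pathway did not go one way between the sets. Tbx21, which encodes the Th1 factor T-bet, ran from 5.25 to 6.16 in set II and from 4.35 to 5.40 in set I, and Cd3e, a chain of the T cell receptor complex, from 6.11 to 8.57 in set II and from 4.82 to 6.54 in set I. With quantile normalisation the set difference of Tbx21 was 0.10 (limma adjusted p = 0.607), against 0.69 under the deposited scaling. That of Cd3e was 0.74 (adjusted p = 0.00176), against 1.15. Of 7 genes of interferon-gamma and its relay, 0 were called higher and 2 lower in set II. Of 14 other interferon-gamma-inducible genes, 1 was called higher and 4 lower, and of 27 type I interferon response genes, 13 were called higher and 1 lower, beside 33.2% higher and 13.5% lower of all genes. With panel median recentring 7 of the type I genes were called higher and 3 lower, beside 169 and 129 of all 770 genes. With quantile normalisation the type I counts were 8 and 2, beside 114 and 133 of all 770. The other interferon-gamma-inducible genes kept 1 higher and 4 lower under both.

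Because the sets differ, relations between genes over all tumours depend on them. Across the 23 tumours Cxcl9 and Cxcl10 gave r = -0.12 and rho = -0.21 (permutation p = 0.579 for r, adjusted p = 0.603). Within the sets they gave r = 0.53 in set II (n = 11, permutation p = 0.0967, adjusted p = 0.254) and r = 0.70 in set I (n = 12, permutation p = 0.00999, adjusted p = 0.0316). Cxcl9 and Cxcl11 were likewise closer within the sets, at r = 0.73 in set II, 0.64 in set I and 0.19 over all tumours. Cxcl10 and Cxcl11 stayed close in each reading, at r = 0.72 in set II (adjusted p = 0.0971), 0.87 in set I (adjusted p = 0.0035) and 0.82 over all tumours (permutation p = 1e-05, the smallest that 100000 permutations can give, adjusted p = 9.5e-05). Without the pair of tumours farthest in Cxcl11, the pooled r of Cxcl10 and Cxcl11 was 0.76.

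**Figure D3:**
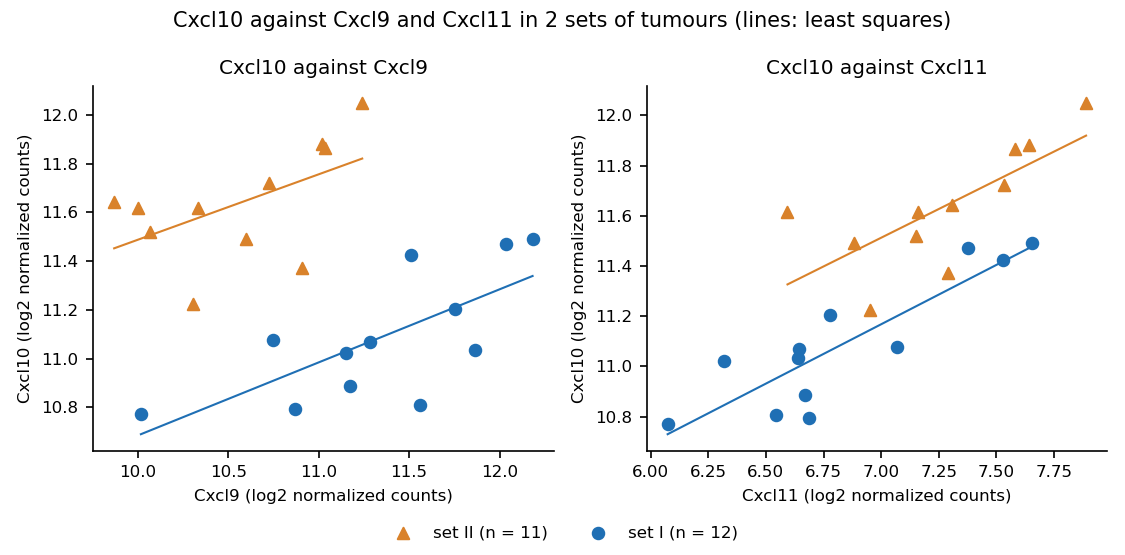
Log2 level of Cxcl10 (vertical axis) against those of Cxcl9 and Cxcl11 (horizontal axes), with orange triangles for the 11 tumours of set II, blue circles for the 12 of set I and least-squares lines within each set. The sets lie as separate bands against Cxcl9, so that the pooled r is -0.12 while each line slopes upward, and against Cxcl11 they follow one another.

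Irf1, an interferon-inducible transcription factor, went with Cxcl9 at r = 0.76 in set II, 0.93 in set I and 0.82 over all tumours. Ifng and Cxcl9 gave r = 0.81 in set II, 0.88 in set I and 0.54 over all tumours. Of the 38 relations computed (each member with 8 genes, and the member pairs), 0 passed adjustment in set II, 16 in set I and 15 over all tumours. The r values lay above 0 for 33 of 38 in set II, 38 of 38 in set I and 32 of 38 over all tumours, and 5 of the 6 that lay below 0 over all tumours were above 0 in both sets. Relations above 0 were common on this panel. Slopes on Cd8a with a group term lay above 0 for 630 of 769 genes in set II and 539 in set I. The share among all pairs of panel genes was not tested, so these counts are not read as particular to the members.

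**Figure D4:**
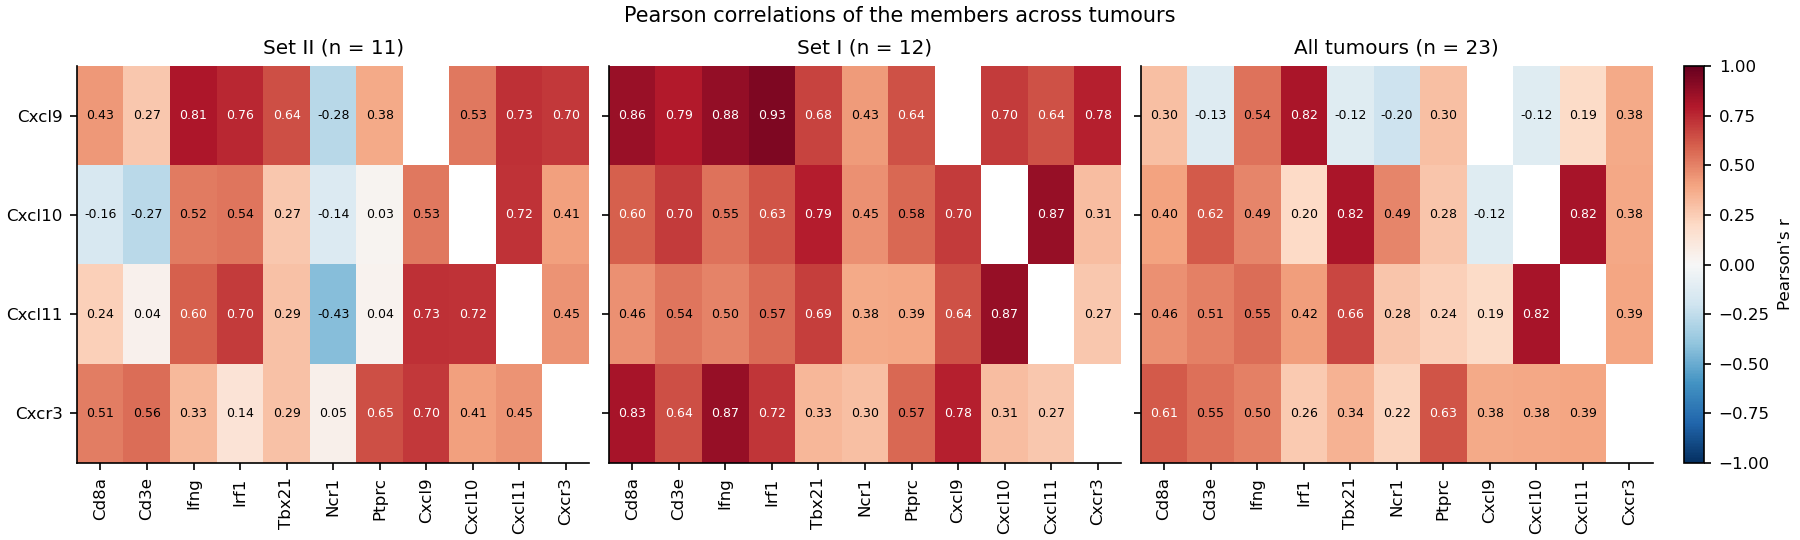
Pearson's r across tumours of each member (rows) with 7 partner genes and the other members (columns), in set II, in set I and over all tumours, on a scale of -1 (blue) to 1 (red). The row of Cxcl9 is positive throughout set I and mixed over all tumours, where r with Cd3e is -0.13 against 0.79 in set I.

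The relation of these genes to Cd8a was compared next, since ligands of CXCR3 are known to draw CD8+ T cells into tumours. Cd8a ranged from 4.97 to 7.95 and was above background in 23 of 23 tumours. Cxcr3 rose with Cd8a across the 23 tumours (r = 0.61, permutation p = 0.00206, adjusted p = 0.00979, and rho = 0.66, adjusted p = 0.00595). This r was not past the threshold with panel median recentring (0.25) or quantile normalisation (0.31). Without A1 and P4, the tumours farthest from the median of Cd8a, r was 0.59. Within the sets r was 0.51 in set II (adjusted p = 0.253) and 0.83 in set I (adjusted p = 0.00689). Cxcl11 gave r = 0.46 (adjusted p = 0.0661), Cxcl10 r = 0.40 (adjusted p = 0.123) and Cxcl9 r = 0.30 (adjusted p = 0.249), none past the threshold over all tumours. Without P4 these passed, at r = 0.58 for Cxcl11 (permutation adjusted p = 0.015), 0.54 for Cxcl10 (adjusted p = 0.0241) and 0.52 for Cxcl9 (adjusted p = 0.0311), and Cxcl11 also passed without A5 (r = 0.53, adjusted p = 0.0286).

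Cxcl9 and Cd8a were related within set I (r = 0.86, rho = 0.86, permutation p = 0.00037, adjusted p = 0.0035), and without A2 and A5 r was 0.90. In set II r was 0.43 (adjusted p = 0.387) with P4 and 0.85 without it (n = 10, permutation p = 0.00099, adjusted p = 0.0376). P4 paired the highest Cd8a with 10.31 for Cxcl9, below the median of its set. For Cxcl10, r with Cd8a was -0.16 in set II with P4, 0.49 without it and 0.60 in set I. For Cxcl11 it was 0.24 in set II with P4, 0.70 without it and 0.46 in set I. For Cxcr3, r was 0.57 in set II without P4.

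**Figure D5:**
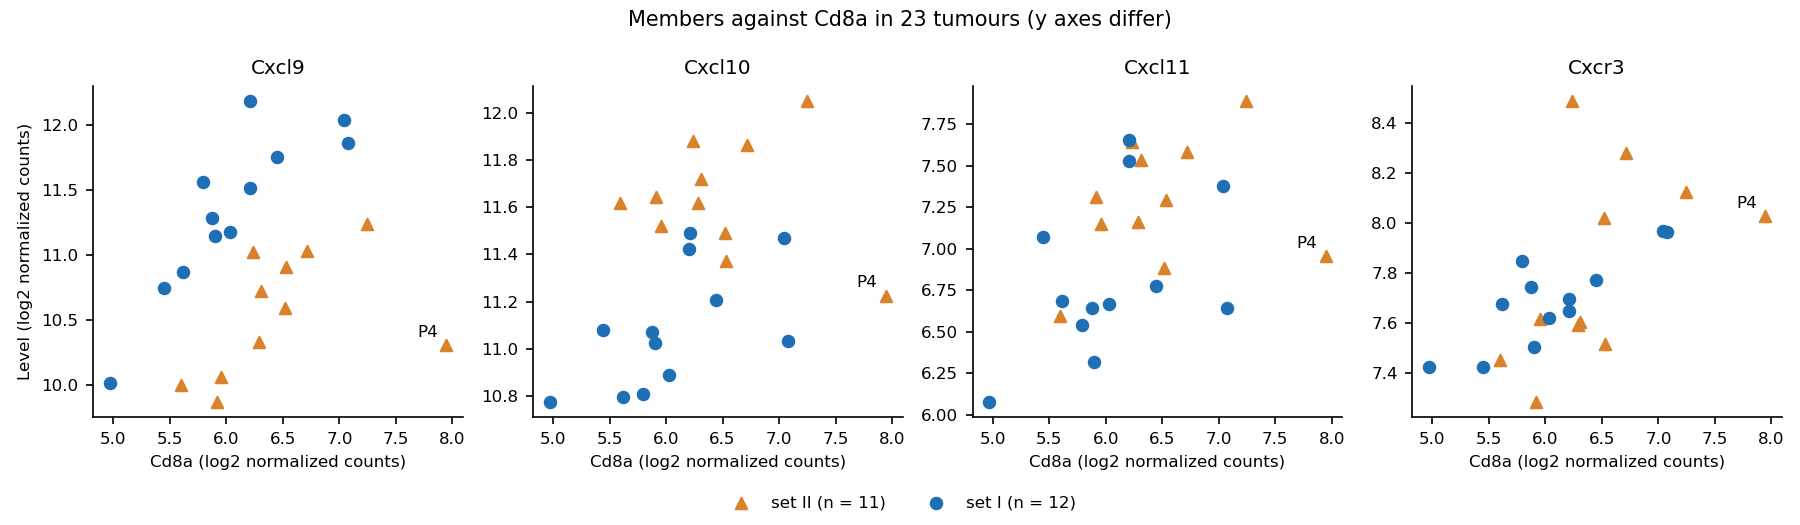
Log2 level of each member (vertical axes, which differ) against that of Cd8a (horizontal axis) in 23 tumours, with orange triangles for the 11 of set II, blue circles for the 12 of set I and tumour P4 marked. Cxcl9 climbs with Cd8a in set I (r = 0.86) and, in a separate band, in set II once P4 is left out (r = 0.85, against 0.43 with P4). P4, at 7.95 for Cd8a, lies off the band of the other set II tumours.

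Fitted as a slope with the treatment group as a term, Cxcr3 rose by 0.31 log2 units per unit of Cd8a (95% interval 0.13 to 0.48, limma adjusted p = 0.0108). Of 769 genes, 29.0% were called in that fit, 28.1% upward with Cd8a, and the median slope of all genes was 0.24. The slopes were 0.32 for Cxcl9 (-0.15 to 0.78), 0.24 for Cxcl10 (-0.01 to 0.49) and 0.34 for Cxcl11 (0.03 to 0.65, adjusted p = 0.0895), none past the threshold. Without P4 the slope of Cxcl11 was 0.53 (adjusted p = 0.0331), and 95 genes in place of 223 were called. With the set as a term, 23.4% of genes were called and Cxcl9 and Cxcr3 were among them, at 0.61 (0.30 to 0.92, adjusted p = 0.00675) and 0.31 (0.12 to 0.49, adjusted p = 0.0178). Cxcl10 then had a slope of 0.10 and Cxcl11 of 0.25, not past the threshold. Within set II, where 11.6% of genes were called, no member was, and Cxcl9 had 0.32, Cxcl11 0.13 and Cxcr3 0.43. Without P4, set II gave 0.95 for Cxcl9 (0.40 to 1.49, adjusted p = 0.283), 0.91 for Cxcl11 and 0.65 for Cxcr3, with 0% of genes called. Within set I, where 1.56% were called, Cxcl9 was among them at 0.96 (adjusted p = 0.0179) and Cxcr3 had 0.27 (adjusted p = 0.136).

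Leaving P4 out of the fit with the set term gave 0.91 for Cxcl9 (0.68 to 1.14, adjusted p = 3.5e-05), 0.34 for Cxcr3 (adjusted p = 0.0341), 0.26 for Cxcl10 (adjusted p = 0.0429) and 0.45 for Cxcl11 (adjusted p = 0.0593), with 14.2% of genes called. With P4 included, the slope of Cxcl9 on Cd8a in set II minus that in set I was -0.79 (-1.35 to -0.22, adjusted p = 0.319 over all genes). Without P4 it was -0.07 (-0.68 to 0.53, adjusted p = 0.97). Cd8a also went with the leucocyte content, as Ptprc had a slope of 0.74 on it (adjusted p = 0.00169). After panel median recentring the slope of Cxcr3 was 0.14 (adjusted p = 0.577) and after quantile normalisation 0.21 (adjusted p = 0.742), so its call rests on the deposited scaling. Slopes and correlations with the set as a term, or within a set, were run on the deposited scaling only. Whether the calls of Cxcl9 in them depend on the scaling was not tested. With Ptprc as a covariate no member was called, at 0.20 for Cxcl9, 0.29 for Cxcl10, 0.48 for Cxcl11 and 0.21 for Cxcr3, and 0 of the genes tested passed. With Ptprc and the set together the slope of Cxcl9 was 0.67 (0.20 to 1.14, unadjusted p = 0.0079, adjusted p = 0.43), beside 0.61 with the set alone.

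Of 19 T and NK cell genes that could mark carriers of the receptor, 13 were called upward with Cd8a, beside 28.1% of all genes, and the median slope was 0.64, led by Cd3d, a chain of the T cell receptor complex, at 0.82 (adjusted p = 0.000138). Of 14 other interferon-gamma-inducible genes, 5 were called upward, led by Ciita, the master switch of MHC class II, at 1.08 (adjusted p = 0.000329). Of 7 genes of interferon-gamma and its relay 0 were called, and Ifng had a slope of 0.36 (adjusted p = 0.1). Without P4, 2 of these 7 and 4 of the 14 were called upward, beside 94 of all 769 genes. Ifng then had a slope of 0.70 (limma adjusted p = 0.00302) and Irf1 0.47 (adjusted p = 0.00351). Within the sets, Ifng had 0.74 in set I (adjusted p = 0.0179) and 0.07 in set II (adjusted p = 0.854). Of 17 B cell and lymph node markers, 13 were called upward with a median of 0.90, led by Cd79b at 1.75, and these markers were highest in P4, and 3 of them were called without P4 against 11 of the T and NK cell genes. Within set II, where 11.6% of all genes were called with P4 and 0% without it, 10 of the T and NK cell genes and 11 of the B cell markers were called. Within set I, where 1.56% of all genes were called, the counts were 3 and 0. These calls rest on the deposited scaling, since 6 genes in all, 3 of them T and NK cell genes, were called with panel median recentring, 0 with quantile normalisation and 0 with Ptprc as a covariate.

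Between the treatment groups none of these lists held a called gene. The 7 genes of interferon-gamma and its relay had medians of -0.03 for A minus P, -0.01 for DZ minus P and -0.01 for A minus DZ, beside -0.09, 0.04 and -0.13 over all genes. The 14 other interferon-gamma-inducible genes had medians of -0.01, 0.01 and -0.07 in these comparisons, and the 20 T and NK cell genes -0.23, -0.17 and -0.07. Without P4 the T and NK cell medians were -0.04 for A minus P and 0.07 for DZ minus P, beside 0.03 and 0.15 over all genes. For A minus DZ the T and NK cell median was -0.45 in set II and 0.37 in set I. The smallest p in the T and NK list belonged to Ncr1, an activating receptor of NK cells, at -0.60 for A minus P (unadjusted p = 0.134) and -0.51 for DZ minus P (unadjusted p = 0.176), and without P4 these were -0.40 and -0.31. For DZ minus P the 27 type I interferon response genes had a median of 0.13 beside 0.04 over all genes, with 25 of 27 above 0 beside 443 of 770, and none was called. Without P4 the medians were 0.15 for the list and 0.15 over all genes. In that list Bst2, which tethers budding virus to the cell surface, had the smallest p at 0.34 (unadjusted p = 0.0168, adjusted p = 1).

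The genes most like each member were taken as the 5 with the highest r over the 23 tumours after removal of group means, as a description with no test. Depth and set differ between these tumours and were not removed here, so likeness can also follow them. For Cxcl9, 4 of these were Irgm2 (0.88), Gbp5 (0.88), Ccrl2 (0.87) and Prf1 (0.86). Irgm2 and Gbp5 encode interferon-inducible GTPases, and Prf1 encodes perforin, the pore-forming protein of killer lymphocytes. Cd8a ranked 197 and Ptprc 205 among the 769 other genes by their likeness to Cxcl9. For Cxcl10 they were Psmb10 (0.87), Oas3 (0.86), Stat2 (0.85), Birc5 (0.85) and Isg15 (0.83), of which Oas3, Stat2 and Isg15 belong to the type I interferon response, and Cd8a ranked 256.

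For Cxcl11 the nearest gene of all was Cxcl10 (0.84), and outside the members they were Tnf (0.75), Il12rb2 (0.71), Klrc1 (0.71), Slamf7 (0.69) and Ccl25 (0.68), with Cd8a at rank 97. For Cxcr3 they were Il2rg (0.81), Itgal (0.81), Il12rb1 (0.81), Spn (0.80) and Tmem173 (0.77). Il2rg encodes the shared chain of lymphocyte cytokine receptors, Itgal the integrin chain of LFA-1, Il12rb1 a chain of the receptor for IL-12, and Spn the leucocyte sialophorin CD43. Cd8a ranked 22 for Cxcr3 and Ptprc 48, the nearest that either came to a member.

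Removal of the set means changed these neighbours. Cxcl9 then lay nearest to Cd274 (0.90), which encodes the checkpoint ligand PD-L1, Irf1 (0.88), Fpr2 (0.86), Ccrl2 (0.86) and Psmb10 (0.85), and Cd8a came to rank 32. Cxcl10 lay nearest to Cxcl11 (0.85) and, outside the members, to Ccrl2 (0.83), Tnfsf10 (0.79), Xaf1 (0.73), Psmb8 (0.70) and Zbp1 (0.69). Cxcl11 had Ccrl2 (0.78), Tnfsf10 (0.71) and Psmb8 (0.69) as its first 3 outside the members. Ccrl2, an atypical chemokine receptor that binds chemerin, was thus among the 5 nearest genes of all 3 chemokines. Cxcr3 lay nearest to H2-K1 (0.90), Tapbp (0.86), H2-D1 (0.82), Il2rg (0.81) and Tap2 (0.80), of which all but Il2rg serve MHC class I presentation. For Cxcr3, Cd8a fell from rank 22 to 58 and Ptprc from 48 to 74. Among the members, r with the set and group removed was 0.66 for Cxcl9 with Cxcl10, 0.66 for Cxcl9 with Cxcl11 and 0.67 for Cxcl9 with Cxcr3, and 0.35 for Cxcr3 with Cxcl10 and with Cxcl11.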

How the data were processed

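Barcodes of 23 E0771 primary tumours were counted with nCounter. Per the methods, the authors used nSolver and its Advanced Analysis for processing, and the deposited values are log2 normalised counts, 1 column per tumour, for 750 endogenous and 20 reference genes beside 6 positive control probes and 8 negative ones. Reference genes averaged 11.4 in each tumour. Each tumour's counts had therefore been multiplied by a single factor (0.759 to 1.57) before log2 was taken, and dividing by it gave counts that were whole within 0.05. Background was the mean of the negative controls plus 2 SD, times the factor (4.06 to 5.37 log2 units). No filter on low values was applied. The number of barcodes limits the precision, and totals are counts of captured molecules.

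Tests of genes took these log2 values into limma 3.58.1 under R 4.3.3 (lmFit and eBayes, two-sided, with Benjamini-Hochberg adjustment over 770 genes, or 769 for slopes), A minus DZ on its 11 tumours and the rest on all 23. Replicates are separate tumours, and p-values measure the spread between them. Correlations used 100000 permutations (two-sided), adjusted over 38 relations within a set of tumours. On simulated data of these sizes 71.6% of 2-fold changes were recovered for A minus P. The share was 73.1% for DZ minus P and 74.6% for A minus DZ. The noise was independent over 770 genes, and 570 of these were left unchanged. Its spread was what remained after group and set terms, while the tests had no set term. The shares recovered can therefore be too high for genes that differ between the sets. Recovery with fewer genes changed, or with a difference between the sets, was not tested. Replicate numbers were checked for pairing, and r of like-numbered tumours passed 0.1 in 4 of 5 pairs for A and P and 1 of 6 for DZ and P, so they were not used as pairs.

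Sets of tumours came from Ward clustering on the 20 reference genes, and were found after seeing the data. The genes described are the 4 members, 8 partner genes, the 5 nearest genes of each member and, per list, the gene with the smallest p. The values of 1 partner gene are not reported here. The members and lists were chosen with earlier results of these data known. Promoter sequences were matched by symbol for 3 of the 4 members. The alternatives were a pseudocount of 1, a filter at a mean of 20 normalised counts, panel median recentring, quantile normalisation, a background floor, other tumours in the fit, an intensity trend, exact permutation tests, Ptprc as a covariate, the replicate number as a block, leaving out each tumour, and, added later, the set as a block, each set alone, P4 left out with and without the set as a block, and the lists under these settings. Figures used matplotlib 3.10.9.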

Additional observations from a re-analysis of the deposited data

Results flagged for a closer look

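Within the DZ group, Cxcl9 was 10.0025 in tumour DZ6, and its gap to the next DZ tumour took a larger part of the group's range than Dixon's 95% limit allows (ratio 0.67 against 0.625). DZ6 is a set II tumour, and it had no such gap for the other members. Within the P group, Cd8a was 7.95 in P4, with a ratio of 0.73 against the same limit. Both are values of single tumours, and about 1 group in 20 is expected to pass this limit by chance.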

How the results depend on the processing

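No difference between treatment groups was called under any alternative tried, for any member (smallest adjusted p 0.41), and the cause of the changes below was not tested. The sign of these small differences did depend on the processing. With panel median recentring, A minus P was 0.11 for Cxcl10 and 0.06 for Cxcl9, ADZ minus P was 0.05 for Cxcl10, 0.10 for Cxcl11 and 0.15 for Cxcl9, ADZ minus DZ was 0.02 for Cxcl10 and 0.14 for Cxcr3, and A minus DZ was 0.07 for Cxcl10, 0.07 for Cxcl11, 0.12 for Cxcl9 and 0.12 for Cxcr3. With quantile normalisation, DZ minus P was -0.004 for Cxcl10, ADZ minus P was 0.10 for Cxcl11 and 0.02 for Cxcl9, ADZ minus DZ was 0.11 for Cxcr3, and A minus DZ was 0.02 for Cxcl11, 0.01 for Cxcl9 and 0.10 for Cxcr3. Within set II, A minus P was 0.04 for Cxcl10 and -0.03 for Cxcr3, DZ minus P was 0.01 for Cxcl11 and 0.39 for Cxcl9, ADZ minus P was 0.11 for Cxcl10, 0.09 for Cxcl11 and 0.62 for Cxcl9, and ADZ minus A was 0.07 for Cxcl10. Within set I, DZ minus P was -0.14 for Cxcl10 and -0.15 for Cxcr3, ADZ minus P was -0.09 for Cxcr3, ADZ minus DZ was -0.07 for Cxcl11, -0.22 for Cxcl9 and 0.06 for Cxcr3, ADZ minus A was -0.25 for Cxcl9 and -0.14 for Cxcr3, A minus DZ was 0.03 for Cxcl9 and 0.19 for Cxcr3, and the interaction was 0.01 for Cxcr3.

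Leaving out each tumour in turn, A minus P ran from -0.19 to 0.02 for Cxcl10, -0.45 to 0.08 for Cxcl9 and -0.06 to 0.10 for Cxcr3. DZ minus P ran from -0.03 to 0.17 for Cxcl10, -0.21 to 0.06 for Cxcl11 and -0.27 to 0.20 for Cxcl9. ADZ minus P ran from -0.25 to 0.02 for Cxcl11, -0.26 to 0.20 for Cxcl9 and -0.001 to 0.15 for Cxcr3. ADZ minus DZ ran from -0.16 to 0.12 for Cxcl11, -0.19 to 0.11 for Cxcl9 and -0.14 to 0.07 for Cxcr3. ADZ minus A ran from -0.17 to 0.08 for Cxcl10, -0.02 to 0.30 for Cxcl11, -0.09 to 0.42 for Cxcl9 and -0.02 to 0.12 for Cxcr3. A minus DZ ran from -0.32 to 0.03 for Cxcl11, -0.41 to 0.09 for Cxcl9 and -0.19 to 0.01 for Cxcr3. The interaction ran from -0.23 to 0.02 for Cxcl10, -0.07 to 0.46 for Cxcl9 and -0.17 to 0.04 for Cxcr3.

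The slope of Cxcr3 on Cd8a was not called with panel median recentring (0.14), quantile normalisation (0.21), Ptprc as a covariate (0.21), Ptprc and the set block (0.20), within set I (0.27), within set II (0.43) or there without P4 (0.65). The slope of Cxcl9 was called with the set block (0.61), the set block without P4 (0.91) and within set I (0.96), and that of Cxcl10 with the set block without P4 (0.26), against -0.03 within set II. These fits used the deposited scaling only. The number of genes called on Cd8a, 223 in all, was 6 with panel median recentring, 0 with quantile normalisation, 0 with Ptprc, 1 with Ptprc and the set block, 12 within set I, 89 within set II, 0 there without P4, and 109 with the set block without P4. Leaving out each tumour it ran from 95 to 291, lowest without P4, and the slope of Cxcl11 from 0.25 to 0.53, highest and called without P4 (adjusted p = 0.0331).

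The correlation of Cxcl9 with Cd8a was called within set I (0.86), within set II without P4 (0.85), with the set block (0.69) and with the set block without P4 (0.90). That of Cxcl10 was called relative to Ptprc (0.48) and with the set block without P4 (0.64), against -0.16 within set II. That of Cxcl11 was called relative to Ptprc (0.55) and with the set block without P4 (0.58). Relative to Ptprc, the same Ptprc level was subtracted from the member and from Cd8a, and this shared term can by itself draw r upward. With Ptprc as a covariate the slopes were not called (limma adjusted p = 0.548 for Cxcl10 and 0.43 for Cxcl11). The correlation of Cxcr3 with Cd8a was not called within set II (0.51), there without P4 (0.57), with panel median recentring (0.25) or with quantile normalisation (0.31). Leaving out each tumour it ran from 0.20 to 0.52 for Cxcl9, 0.30 to 0.54 for Cxcl10 and 0.33 to 0.58 for Cxcl11, highest and called without P4 in each, and for Cxcl11 also without A5 (0.53). Likeness of like-numbered tumours was mixed. Their r was over 0.1 in 1 of 6 pairs between ADZ and placebo tumours, in 3 of 6 between ADZ and DZ tumours, and in 4 of 5 between A and placebo tumours. The replicate block changed no call of a difference, and called the correlations of Cxcl10 (0.48) and Cxcl11 (0.49) with Cd8a.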
